A study of Mus musculus with 16 samples.

Results

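Teneurins, latrophilins and FLRT proteins are cell-surface proteins that bind each other across the cleft between neurons. Their 10 genes were followed in single-nucleus RNA sequencing of the mouse hippocampus: 4 teneurins (Tenm1, Tenm2, Tenm3 and Tenm4), 3 latrophilins (Adgrl1, Adgrl2 and Adgrl3) and 3 FLRT genes (Flrt1, Flrt2 and Flrt3), of 32285 genes in the files. They were chosen by symbol, because Tenm4 had been seen lower with tau in granule neurons of the dentate gyrus (DG). The values of all 10 genes in the tau comparison of granule neurons are therefore given as a description, with no test.

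The 16 libraries came from female mice aged 9 months, 4 libraries in each of 4 groups. Mice labelled Ch25h+/+ were either Tau+ or Tau-, and so were mice labelled Ch25h-/-. Ch25h encodes cholesterol 25-hydroxylase, the enzyme that makes 25-hydroxycholesterol, and the title of the study sets it beside innate immune signalling and tau pathology. The labels name neither the tau line, nor the promoter that drives it, nor the strain, nor which part of Ch25h is missing. They state no litter, batch or source of each library, so p-values measure only the spread between these libraries, which may be technical in part.

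A library held 51270831 to 84870650 unique molecular identifiers (UMIs, counted molecules). After filters and removal of doublets it kept 7601 to 10567 nuclei, with a median of 3642.5 to 6253 UMIs per nucleus. Of 136828 nuclei, 127739 fell into 17 classes named from markers, and 4.13 to 11.4% of a library stayed unnamed. Pairs of libraries shared 10 to 40 cell barcodes, at most 0.465% of the smaller library. Levels are CPM, the gene's UMIs scaled to a common total of UMIs, of the summed nuclei of a class in a library. Gm43049, a noncoding gene at 3:140692038-140760704 (GRCm38), read 67.4 to 87.0 CPM over all nuclei of the Ch25h+/+ Tau+ libraries and 71.0 to 78.7 CPM in those labelled Ch25h-/- Tau+, against at most 0.207 CPM in any Tau- library. Prnp, the prion protein gene, was also higher in Tau+ libraries, at 122 ± 9.48 against 83.3 ± 18.3 CPM (SD, n = 4) in Ch25h+/+ and 127 ± 19.7 against 79.8 ± 12.1 CPM in those labelled Ch25h-/-. Ch25h itself had 8 to 36 UMIs per library and did not separate the genotypes: it read 0.474 ± 0.210 CPM in Ch25h+/+ Tau+ and 0.451 ± 0.111 CPM in the libraries labelled Ch25h-/- Tau+ (SD, n = 4). In Tau- libraries it was lower under the Ch25h+/+ label, at 0.195 ± 0.038 CPM (0.147 to 0.240), than under the Ch25h-/- label, at 0.348 ± 0.101 CPM (0.204 to 0.436). This order is the reverse of that in the labels, but the ranges overlapped, on 8 to 12 and 10 to 25 UMIs per library. Since the missing part of Ch25h is not given, these counts cannot check the genotype. Both Ch25h genotypes are therefore those of the labels throughout, Ch25h+/+ included.

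Teneurins are large single-pass proteins that form dimers and help neurons choose their partners. Latrophilins are adhesion G-protein-coupled receptors first known as receptors of a spider toxin, and they bind teneurins and FLRT proteins from the opposite membrane. FLRT proteins carry leucine-rich repeats and also bind Unc5 receptors. In the hippocampus, Tenm3 and latrophilin-2 are known for guiding axons from CA1 to the subiculum, where the cells of matching regions carry matching or repelling partners.

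Positions are in GRCm38. Tenm1 lies at X:42527866-43429126, Tenm2 at 11:36006656-37235964, Tenm3 at 8:48227682-48843951 and Tenm4 at 7:96171246-96911093. Adgrl1 lies at 8:83900105-83941954, Adgrl2 at 3:148815583-148990555 and Adgrl3 at 5:81020138-81825133. Flrt1 lies at 19:7092001-7105729, Flrt2 at 12:95692226-95785215 and Flrt3 at 2:140650914-140671469. All are protein-coding. The genes differ in length from 13.7 kb (Flrt1) to 1229 kb (Tenm2), and nuclei hold unspliced RNA, which can add to the counts of long genes if intronic reads were counted, so levels are compared between classes for 1 gene and not between genes. Flrt1 lies inside Macrod1 and Flrt3 inside Macrod2, each on the opposite strand, and Tenm4 overlaps 9 noncoding genes and pseudogenes on the opposite strand. Whether the counting used strand is not given in the sources used here, so reads of such partners may be mixed. Adgrl2 lies 8.05 Mb from Gm43049.

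RefSeq promoter windows (250 bases before to 50 after a start, GRCm38.p6) were found for 9 of the 10 genes, all but Flrt1. The 4 windows printed here belong to the 3 teneurins with the most negative log2 fold changes in granule neurons of the libraries labelled Ch25h-/- Tau+, so that their starts can be set side by side. They were searched on both strands for 3 motifs, and matches are in capitals. The first motif was that of the core promoter element known as the TATA box, written TATAAA. The second was the GC box bound by Sp proteins, searched as GGGCGG. The third was the full cyclic AMP response element, TGACGTCA. None of the 3 contains another.
Tenm4, first start (chr7:96170994-96171293, + strand): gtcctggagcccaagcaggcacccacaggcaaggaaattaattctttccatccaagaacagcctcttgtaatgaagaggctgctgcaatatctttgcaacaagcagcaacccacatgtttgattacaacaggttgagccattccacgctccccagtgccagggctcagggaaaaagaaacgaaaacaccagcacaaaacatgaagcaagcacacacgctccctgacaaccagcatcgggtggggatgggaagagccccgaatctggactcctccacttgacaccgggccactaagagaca
Tenm4, second start (chr7:96211421-96211720, + strand): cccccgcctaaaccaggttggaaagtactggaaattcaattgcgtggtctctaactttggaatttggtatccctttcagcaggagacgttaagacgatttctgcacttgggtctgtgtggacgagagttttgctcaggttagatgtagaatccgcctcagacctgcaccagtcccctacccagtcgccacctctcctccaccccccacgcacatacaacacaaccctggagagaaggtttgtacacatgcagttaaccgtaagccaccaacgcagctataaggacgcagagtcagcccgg
Tenm3 (chr8:48674641-48674940, - strand): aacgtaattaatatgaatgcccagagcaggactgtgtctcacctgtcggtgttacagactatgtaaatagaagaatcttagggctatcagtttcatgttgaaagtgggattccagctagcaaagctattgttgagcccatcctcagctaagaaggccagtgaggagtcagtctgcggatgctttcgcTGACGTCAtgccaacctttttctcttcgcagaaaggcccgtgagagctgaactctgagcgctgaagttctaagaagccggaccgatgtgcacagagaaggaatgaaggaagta
Tenm2 (chr11:36944192-36944491, - strand): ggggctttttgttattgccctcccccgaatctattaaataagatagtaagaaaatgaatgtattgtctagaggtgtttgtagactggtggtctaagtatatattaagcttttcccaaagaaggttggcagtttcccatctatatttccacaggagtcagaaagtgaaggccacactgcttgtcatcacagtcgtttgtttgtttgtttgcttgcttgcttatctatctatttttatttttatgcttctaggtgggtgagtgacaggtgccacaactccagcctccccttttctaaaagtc
TGACGTCA stood in the Tenm3 window and in 1.79% of the 32851 RefSeq promoter windows. None of the 3 motifs stood in either Tenm4 window or in the Tenm2 window, whereas GGGCGG stood in 35.7% and TATAAA in 13.6% of all windows. Among the windows not printed, GGGCGG stood in that of Adgrl1 and in all 3 of Adgrl3. TATAAA stood in those of Tenm1 and Adgrl2 and in 1 of Adgrl3. The first Tenm4 window held 6 CpG dinucleotides, the second 12, the Tenm3 window 10 and the Tenm2 window 2, with a median of 7 over all windows. A match says only that these letters are there. The first Tenm4 window spans the start of that gene at the position given above. The Tenm2 and Tenm3 windows lie inside their genes. Both genes are on the - strand and begin at 11:37235964 and 8:48843951, and no window covered those ends.

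The 10 genes differed in how far their levels ranged across classes. Among the 9 classes with enough nuclei for tests, the highest class mean was 88.5 times the lowest for Tenm1, 76.4 times for Tenm2, 65.8 times for Tenm3 and 76.5 times for Tenm4. The span was 5.85 times for Adgrl1, 61.5 times for Adgrl2 and 47.1 times for Adgrl3, and 5.71, 31.4 and 29.3 times for Flrt1, Flrt2 and Flrt3. Adgrl1 and Flrt1 were thus the most even across the tissue. Free RNA was not taken away from these means, and it weighed on several of the lowest ones. It accounted for an estimated 58.6% of the astrocyte level for Tenm1 and 66.0% for Tenm2. In oligodendrocytes it accounted for 37.3% for Adgrl1 and 52.6% for Flrt2. Taking it away left 3.86 CPM of Tenm1 and 33.0 CPM of Tenm2 in astrocytes.

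**Figure D1:**
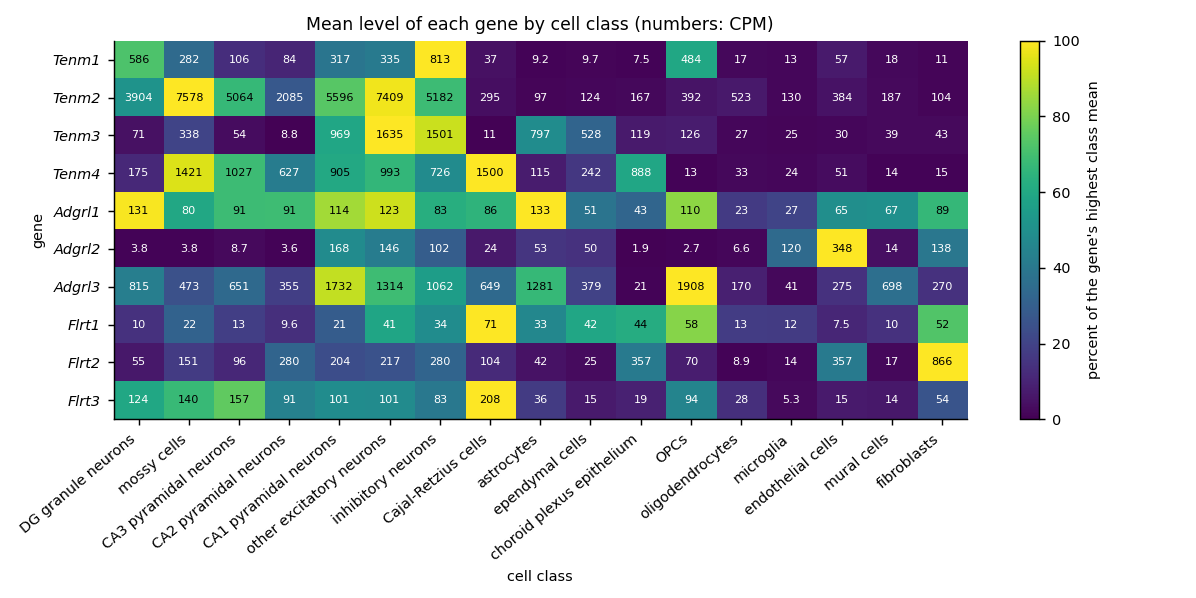
Mean CPM of the 10 genes (rows) in the 17 named classes (columns), over libraries with at least 10 nuclei of the class; colour is the percentage of the gene's own highest class mean. Tenm4 is near its highest in Cajal-Retzius and mossy cells and low in granule neurons, while Adgrl2 is at most 8.74 CPM in granule, mossy, CA2 and CA3 neurons.

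Tenm4 set granule neurons apart from the pyramidal fields. It read 175 ± 33.6 CPM (SD, n = 16) in granule neurons, where libraries ran from 120 to 239 CPM. In CA3 pyramidal neurons it read 1027 ± 71.0 CPM (888 to 1129), in CA1 905 ± 125 (762 to 1242) and in other excitatory neurons, mostly of retrohippocampal and cortical kinds, 993 ± 68.4 (878 to 1121). The CA3, CA1 and other excitatory ranges overlapped one another, and none reached down to granule neurons. Mossy cells, the excitatory neurons of the hilus, were higher still at 1421 ± 88.3 CPM (n = 14 libraries with at least 10 nuclei), with no overlap with CA3. Cajal-Retzius cells, early-born reelin-producing neurons, read 1500 ± 203 CPM (n = 16) and overlapped mossy cells. CA2 pyramidal neurons had a lower mean than CA1 and CA3 and a wider spread. They read 627 ± 222.5 CPM (312 to 1185, n = 16), still above the granule range. Outside neurons it was highest in choroid plexus epithelium, at 888 ± 101 CPM (n = 13), and it was lowest in oligodendrocyte precursors (OPCs), at 13.4 ± 5.03 CPM (n = 16).

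The share of nuclei with a Tenm4 UMI gave the same order. With each nucleus thinned to 1000 UMIs, 13.1% of granule neurons held one, against 59.5% of CA3 and 55.6% of CA1 neurons, as means over 16 libraries. Before thinning the shares were 41.2%, 97.9% and 96.3%, at median depths of 5737, 11800 and 8286 UMIs. OPCs, where the level was lowest, gave 1.63% thinned and 3.82% unthinned at a median of 2834 UMIs. Thinning left out 120 granule, 20 CA3 and 55 CA1 nuclei and 52 OPCs. Reads from free RNA accounted for an estimated 3.18% of the granule neurons' Tenm4 level and 18.1% of that in OPCs.

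Tenm3 was high in CA1 and low in CA3, CA2 and granule neurons. It read 969 ± 131 CPM in CA1 (739 to 1180), 70.8 ± 16.6 in granule neurons (53.2 to 115), 53.6 ± 11.0 in CA3 (35.7 to 73.7) and 8.83 ± 4.28 in CA2 (3.15 to 19.8; SD, n = 16 each). The granule and CA3 ranges overlapped, CA2 stood below both, and the CA1 class stood above all of them. Unnamed clusters 33, 38 and 50, close to CA1 but left out of that class, held less Tenm3 on average. They read 547 ± 64.0 CPM (449 to 642), 558 ± 241 (162 to 983) and 532 ± 124 (306 to 789). Other excitatory neurons (1635 ± 216 CPM) and inhibitory neurons (1501 ± 106 CPM) overlapped at the top. Among glia, Tenm3 stood out in astrocytes, at 797 ± 75.8 CPM (604 to 898), against 126 ± 21.5 in OPCs and 26.9 ± 7.70 in oligodendrocytes, where free RNA accounted for an estimated 63.5% of the level. Ependymal cells, which line the ventricles, read 528 ± 75.3 CPM (n = 15).

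Tenm2 was highest in mossy cells, at 7578 ± 564 CPM (n = 14), which overlapped other excitatory neurons. It read 7409 ± 888 CPM in other excitatory neurons (6550 to 10320), 5596 ± 326 in CA1, 5182 ± 346 in inhibitory neurons, 5064 ± 665 in CA3 and 3904 ± 434 in granule neurons (3086 to 4625; SD, n = 16 each). CA1, inhibitory, CA3 and granule neurons each overlapped the next in this order. Cajal-Retzius cells, at 295 ± 133 CPM, were the lowest neurons, below CA2 neurons at 2085 ± 495 CPM. The highest glial class, oligodendrocytes, read 523 ± 102 CPM, with 17.8% of that accounted for by free RNA. Astrocytes were lowest, at 97.0 ± 21.2 CPM, of which 66.0% was accounted for by free RNA.

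For Tenm1, inhibitory neurons read 813 ± 70.4 CPM (691 to 961) and granule neurons 586 ± 75.8 (444 to 723; SD, n = 16 each), with a small overlap. OPCs followed at 484 ± 46.1 CPM (431 to 592) and overlapped granule neurons, while astrocytes read 9.19 ± 2.95 and oligodendrocytes 17.4 ± 6.73 CPM. Free RNA accounted for an estimated 58.6% of that astrocyte level and 44.1% of that oligodendrocyte level. CA3 neurons read 106 ± 42.8 CPM and CA1 neurons 317 ± 84.0, with no overlap between them.

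The latrophilins divided differently. Adgrl2 (latrophilin-2) read 168 ± 23.3 CPM in CA1 (111 to 207) but 8.74 ± 2.97 in CA3 (3.34 to 13.2), 3.81 ± 1.51 in granule neurons (1.40 to 6.32) and 3.58 ± 2.93 in CA2 (0 to 13.4; SD, n = 16 each). The CA1 class lay above the others in every library, and CA3, granule and CA2 neurons overlapped. Of the unnamed clusters close to CA1, Adgrl2 read 186 ± 33.1 CPM in cluster 33, 82.7 ± 30.2 in cluster 38 and 27.5 ± 14.6 in cluster 50. Outside neurons it was highest in endothelial cells, at 348 ± 112 CPM (n = 9 libraries), and it read 120 ± 38.1 CPM in microglia (n = 16), against 2.74 ± 2.19 in OPCs. Adgrl3 (latrophilin-3) was highest in OPCs, at 1908 ± 119 CPM, and in CA1, at 1732 ± 62.6, which overlapped. It read 1281 ± 109 CPM in astrocytes, 815 ± 71.5 in granule neurons, 651 ± 39.1 in CA3 and 40.5 ± 11.2 in microglia. Adgrl1 (latrophilin-1) read 133 ± 12.9 CPM in astrocytes and 131 ± 10.1 in granule neurons, which overlapped, and 22.7 ± 4.46 in oligodendrocytes, the lowest class.

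Of the FLRT genes, Flrt2 was highest in fibroblasts, at 866 ± 287 CPM (n = 15). Choroid plexus epithelium, at 357 ± 37.2 (n = 13), and endothelial cells, at 357 ± 142 (n = 9), followed with the same mean. In neurons it read 280 ± 28.3 CPM in inhibitory neurons, 204 ± 26.4 in CA1, 95.7 ± 10.5 in CA3 and 55.1 ± 8.07 in granule neurons (n = 16 each), with no overlap between CA1 and CA3. Flrt3, read in granule, CA3 and CA1 neurons, was highest in CA3, at 157 ± 11.7 CPM in CA3 (143 to 193), 124 ± 14.0 in granule neurons (106 to 166) and 101 ± 10.8 in CA1 (86.5 to 128), where CA3 and CA1 did not overlap. Flrt1 ran from 10.1 ± 1.69 CPM in granule neurons to 57.7 ± 22.0 in OPCs among the tested classes.

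Within the broad neuronal classes, clusters differed again. These clusters were formed with the 10 genes left out of the clustering genes, yet all come from the same nuclei, so their levels are a description. Among inhibitory neurons, a cluster led by Hapln1 and Sema3c (cluster 27, 1085 nuclei) held Tenm1 at 2344 ± 218 CPM and Flrt2 at 640 ± 91.3 CPM (SD, n = 16). The cluster led by Sst (cluster 15, 5146 nuclei) held Tenm1 at 505 ± 59.7 and Flrt2 at 234 CPM. Pvalb was also among its leading genes, so its levels may not be those of Sst interneurons alone. Cluster 15 in turn held Adgrl2 at 163 ± 34.0 CPM, against 17.4 ± 9.08 in the cluster led by Vip (cluster 16) and 6.25 ± 4.81 in cluster 27. Tenm3 was at 1682 ± 149 and 1429 ± 215 CPM in clusters 15 and 16 but at 101 ± 42.3 in the cluster led by Ndnf and Reln (cluster 17).

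Among excitatory clusters outside the hippocampal fields, Tenm3 ran from 188 ± 64.7 CPM (cluster 49, led by Col24a1; n = 15) to 3587 ± 954 CPM (cluster 4, led by Cpa6 and Lef1; n = 16). Cluster 31, led by Skint1 and Fn1, had high levels of both Tenm3 (2719 ± 446 CPM) and Adgrl2 (310 ± 51.7 CPM), whereas cluster 4 had Adgrl2 at 9.32 ± 6.37 CPM. These levels are sums over a cluster's nuclei, and whether the same nuclei held both genes was not tested. The most extreme Tenm3 level was in an unnamed cluster led by Ebf2 and Ebf3 (cluster 43, 423 nuclei), at 8356 ± 742 CPM over the 10 libraries with at least 10 of its nuclei. The 2 CA3 clusters also differed: Adgrl2 read 1.56 ± 1.01 CPM in cluster 25 (led by Iyd and Nectin3) and 38.2 ± 9.96 CPM in cluster 44 (led by Col6a1), and Tenm4 read 940 ± 66.7 and 1397 ± 85.1 CPM. The library ranges of the 2 clusters did not overlap for either gene.

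**Figure D2:**
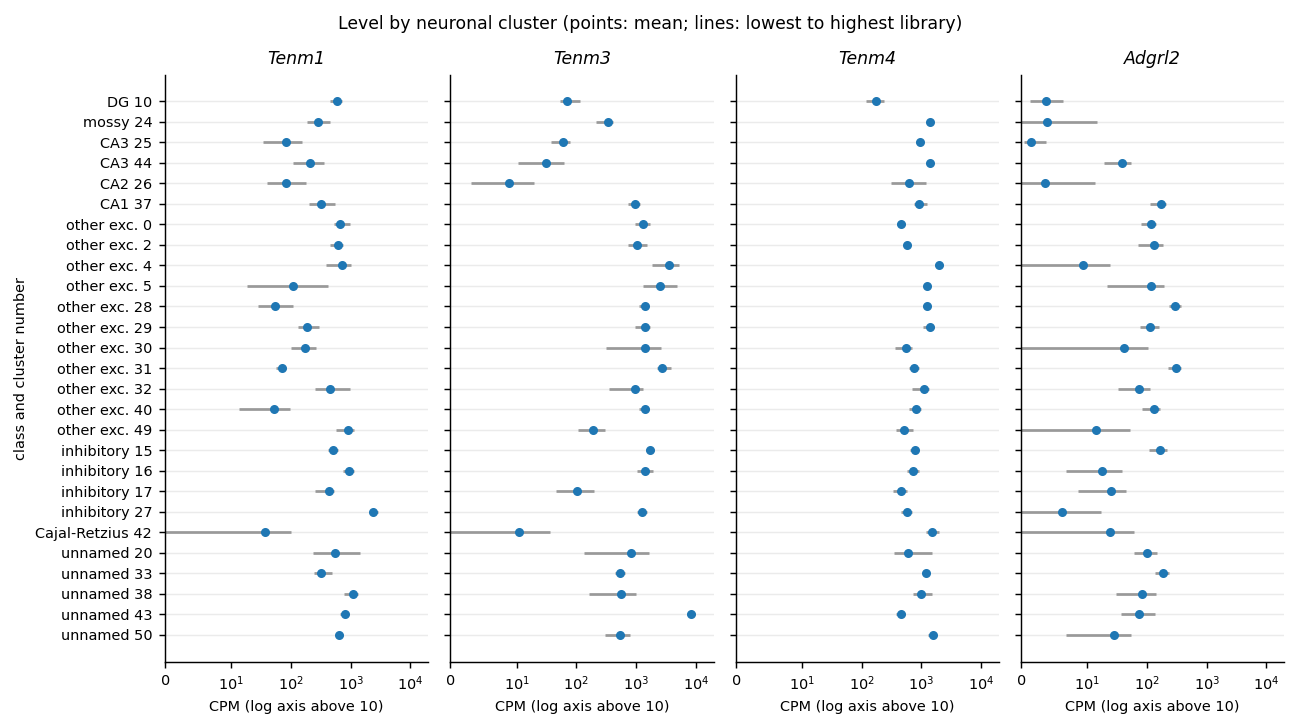
Level of Tenm1, Tenm3, Tenm4 and Adgrl2 in each neuronal cluster and in 5 unnamed clusters (CPM, log axis above 10; points are means over libraries with at least 10 nuclei, lines run from the lowest to the highest library). Tenm1 peaks in inhibitory cluster 27 at 2344 CPM, Tenm3 in unnamed cluster 43 at 8356 CPM, and Adgrl2 runs from 1.56 CPM in CA3 cluster 25 to 310 CPM in cluster 31.

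Over the 17 classes, the genes whose mean log2(CPM + 1) followed Tenm4 most closely were Gm15414 (Pearson r = 0.98), C230038L03Rik (0.96) and Gm15413 (0.94), which lie within the Tenm4 gene on the opposite strand. For Tenm3 they were Thrb (0.85), Gm48321 (0.83) and Pde9a (0.82). For Adgrl2 they were Pnpla8 (0.80), Fos (0.74) and Igfbp4 (0.73). These were the 3 highest of 16160 genes for each, and the points share libraries and depth. Among the 10 genes the closest pair was Tenm1 and Tenm2 (0.85) and the most opposed Adgrl2 and Flrt3 (-0.26).

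The comparison that chose these genes is described next. In granule neurons Tenm4 read 168, 179, 163 and 180 CPM in the 4 Ch25h+/+ Tau+ libraries and 163, 189, 168 and 158 CPM in the Ch25h+/+ Tau- libraries. In the libraries labelled Ch25h-/- it read 120, 123, 147 and 164 CPM with tau and 239, 221, 230 and 187 CPM without. Under the Ch25h+/+ label the groups overlapped throughout, at 173 ± 8.30 and 170 ± 13.5 CPM (SD, n = 4 each). In the libraries labelled Ch25h-/- the groups did not overlap, at 138 ± 20.7 with tau and 219 ± 22.9 CPM without. In granule neurons the lower Tenm4 with tau was therefore seen within 1 Ch25h genotype, with a log2 fold change of -0.65 (SE 0.10) there and 0.01 (SE 0.10) in Ch25h+/+.

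Of the groups labelled Ch25h-/-, the mean with tau lay below both Ch25h+/+ means and the mean without tau lay above both. The difference was larger among replicates 1 and 2, with means of 122 and 230 CPM, than among replicates 3 and 4, with means of 155 and 208 CPM. Thinned to 1000 UMIs, 10.8% of granule neurons labelled Ch25h-/- Tau+ held a Tenm4 UMI (7.86 to 14.9% by library), against 16.2% in Ch25h-/- Tau- (14.8 to 16.9%), 12.4% in Ch25h+/+ Tau+ and 13.2% in Ch25h+/+ Tau-. Unthinned, the shares were 37.5%, 47.0%, 37.3% and 39.2% in the same order.

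**Figure D3:**
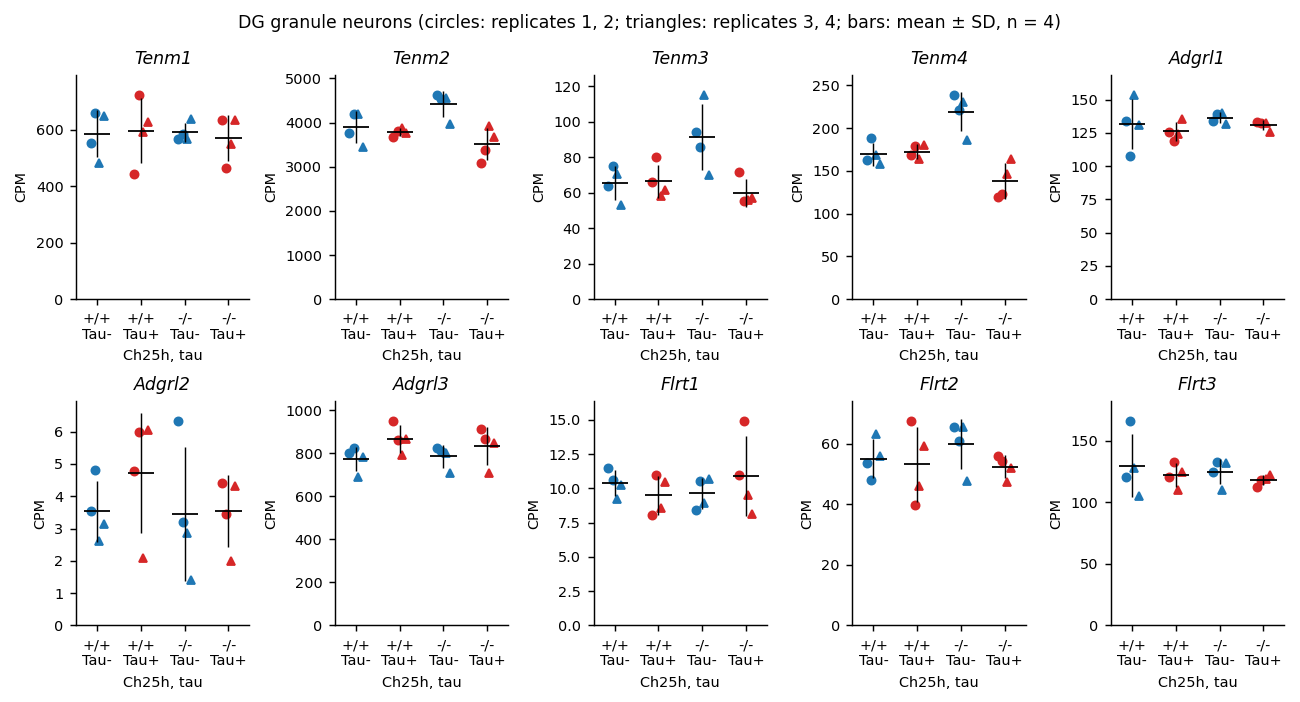
CPM of each of the 10 genes in granule neurons, 1 point per library, by group (circles are replicates 1 and 2, triangles replicates 3 and 4; bars show the mean ± SD, n = 4; axes start at 0). Tenm4 in the libraries labelled Ch25h-/- Tau+ lies between 120 and 164 CPM and in those labelled Ch25h-/- Tau- between 187 and 239 CPM, while both Ch25h+/+ groups lie between 158 and 189 CPM.

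Tenm3 and Tenm2 shared this arrangement in granule neurons. Tenm3 read 71.5, 55.4, 55.8 and 56.8 CPM in the libraries labelled Ch25h-/- Tau+ and 94.2, 85.8, 115 and 70.2 CPM in those labelled Ch25h-/- Tau-, which overlapped by 1 library (log2 fold change -0.59, SE 0.14). In Ch25h+/+ it read 66.3 ± 9.53 with tau and 65.6 ± 9.51 CPM without. Tenm2 read 3086, 3378, 3928 and 3665 CPM against 4625, 4526, 4554 and 3970 CPM in the libraries labelled Ch25h-/-, which did not overlap (log2 fold change -0.32, SE 0.08), and 3786 ± 85.1 against 3899 ± 368 CPM in Ch25h+/+. Tenm1 read 571 ± 81.6 with tau and 590 ± 33.6 CPM without in the libraries labelled Ch25h-/-, and overlapped throughout.

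For the other 6 genes the groups labelled Ch25h-/- overlapped in granule neurons. Log2 fold changes with tau in the libraries labelled Ch25h-/- were -0.05 for Adgrl1, 0.09 for Adgrl2 (SE 0.41, at 1.40 to 6.32 CPM), 0.10 for Adgrl3, 0.19 for Flrt1, -0.18 for Flrt2 and -0.08 for Flrt3. Over the 10 genes the median was -0.06, against 0.01 over the 15088 genes tested in granule neurons, and 7 of 10 were lower. In Ch25h+/+ the median was -0.03, with 6 of 10 lower and a range of -0.16 to 0.36. Of all genes in granule neurons, 0.0994% were called for tau in the libraries labelled Ch25h-/- and 0.0265% in Ch25h+/+. Since the rule used this comparison, no test is read from these values. The share of all genes whose groups did not overlap is not given here, so lack of overlap is not read as particular to these genes.

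Marker lists of 9 classes were also summed in granule neurons, and values are given for those labelled Ch25h-/- Tau+ first and those labelled Ch25h-/- Tau- second. The 8 CA3 markers summed to 334 to 345 and 336 to 445 CPM, and 5 of the 8 had a lower mean with tau. The 8 CA1 markers summed to 227 to 314 and 257 to 356 CPM, again with 5 lower, and the 21 markers of other excitatory neurons to 810 to 1055 and 858 to 1029 CPM, with 13 lower. The 7 mossy cell markers summed to 43.1 to 49.9 and 39.9 to 52.0 CPM. Astrocyte markers summed to 957 ± 51.5 and 873 ± 52.5 CPM, microglia markers to 151 ± 13.3 and 134 ± 18.1 CPM, and oligodendrocyte markers to 369 ± 14.7 and 353 ± 18.8 CPM (SD, n = 4). The 10 inhibitory markers summed to 1640 to 1716 and 1842 to 2062 CPM, most of it Adarb2, which read 1579 and 1799 CPM on average. Of the 10, 7 had a lower mean in Ch25h-/- Tau+ and 3, Gad1, Gad2 and Slc32a1, a higher one. Gad1 read 45.1 and 40.6 CPM on average (35.3 to 50.5 over both groups), while Gad2 and Slc32a1 stayed at or under 2.05 and 2.51 CPM in every library of the study. The 10 granule neuron markers summed to 4873 to 5554 and 4910 to 5559 CPM. Granule neurons made up 11.3 to 15.8% of nuclei in libraries labelled Ch25h-/- Tau+ and 17.5 to 29.7% in those labelled Ch25h-/- Tau-, at median depths of 5763 to 7337 and 5003 to 6613 UMIs. Free RNA accounted for 1.29 to 2.16% and 1.42 to 1.90% of all granule UMIs. The part of these values in the Tenm4 difference was not tested.

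Outside granule neurons the 10 genes were tested for tau in 8 classes: CA1, CA3, other excitatory and inhibitory neurons, astrocytes, oligodendrocytes, OPCs and microglia. Counts were summed per library and class and tested by edgeR's quasi-likelihood test, two-sided, with Benjamini-Hochberg adjustment over all genes of the class, and called at an adjusted p under 0.05. Of 80 pairs of gene and class, 76 had enough counts: Adgrl2 in OPCs and Tenm1, Flrt1 and Flrt3 in microglia did not. For tau in Ch25h+/+, 0 of 76 were called by edgeR and 0 by DESeq2, while 5 of them, or 6.58%, had an unadjusted edgeR p under 0.05. Over all genes and these classes, 0.217% were called and 6.60% had an unadjusted p under 0.05. All 5 were lower with tau: Flrt2 and Flrt3 in CA1, Adgrl1 in astrocytes, and Adgrl2 and Tenm4 in microglia. Tenm4 in microglia had log2 fold changes of -0.92 to -0.59 with a library left out, on 216 UMIs over 16 libraries. For tau in the libraries labelled Ch25h-/-, 0 of 76 were called by edgeR and 0 by DESeq2, while 10 of them, or 13.2%, had an unadjusted edgeR p under 0.05. Over all genes, 0.0907% were called and 7.56% had an unadjusted p under 0.05.

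Averaged over both Ch25h genotypes, edgeR and DESeq2 called 0 of 76 for tau, where 1.02% of all genes were called. Here 12 of 76, or 15.8%, had an unadjusted p under 0.05, all of them lower in Tau+, against 9.62% of all genes. Of the 76 values 56 were lower in Tau+, with a median log2 fold change of -0.09 and a range of -0.76 to 0.36. By class the median ran from -0.02 in inhibitory neurons (6 of 10 lower) to -0.16 in oligodendrocytes (8 of 10 lower) and -0.36 in microglia (7 of 7 lower), and the median over all genes was within 0.01 of 0 in each. Microglia had 7.03% and astrocytes 2.82% of all their genes called.

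Long genes as a whole were counted in the same 8 classes for tau averaged over genotypes, and in granule neurons within each genotype. Of the genes of at least 500 kb, which include Tenm1 to Tenm4 and Adgrl3, 75% of 172 were lower in microglia (median log2 fold change -0.20) and 73.7% of 217 in oligodendrocytes (-0.09), against 50.4% and 52.0% of all genes. The share was 67.3% of 211 in OPCs (-0.04), 67.8% of 233 in other excitatory neurons (-0.03), 63.2% of 223 in CA1 (-0.04) and 57.7% of 227 in inhibitory neurons (-0.01). In CA3 neurons 45.1% of 226 long genes were lower (0.01), and in astrocytes 46.3% of 216 (0.01). In granule neurons labelled Ch25h-/-, 64.8% of 227 long genes were lower with tau (-0.05), against 48.6% of all genes. In Ch25h+/+ granule neurons 51.5% of 227 were lower (-0.004), against 50.3% of all genes. The part of gene length in the values of these genes, granule neurons included, was not tested.

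**Figure D4:**
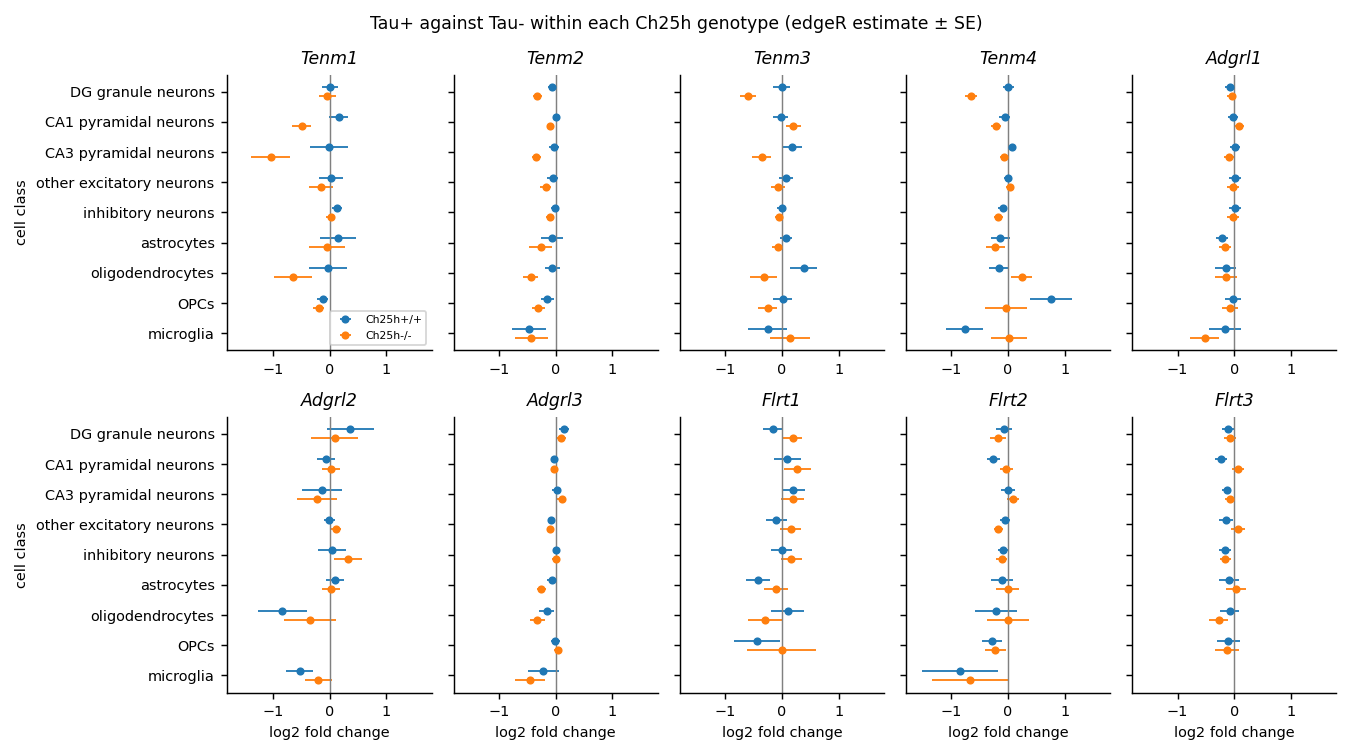
Log2 fold change of Tau+ against Tau- (edgeR estimate ± SE) for each of the 10 genes in the 9 tested classes, in Ch25h+/+ (blue) and in the libraries labelled Ch25h-/- (orange); missing points had too few counts. The Tenm4 estimate in granule neurons is -0.65 in the libraries labelled Ch25h-/- and 0.01 in Ch25h+/+, and Tenm1 in CA3 neurons labelled Ch25h-/- has -1.03.

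In CA3 pyramidal neurons of the libraries labelled Ch25h-/-, Tenm2 read 4150, 4273, 4467 and 4413 CPM with tau and 5880, 5768, 6194 and 4925 CPM without, and the groups did not overlap (log2 fold change -0.34, SE 0.09, edgeR adjusted p = 0.149). The Ch25h+/+ groups overlapped, at 5119 ± 732 and 5120 ± 312 CPM (SD, n = 4). Replicates 1 and 2 gave means of 4211 and 5824 CPM, and replicates 3 and 4 means of 4440 and 5559 CPM. Leaving out Ch25h+/+ Tau+ replicate 3 brought the adjusted p to 0.0496.

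Tenm1 in the same CA3 neurons read 49.8, 53.4, 67.0 and 74.9 CPM with tau and 156, 103, 165 and 99.5 CPM without in the libraries labelled Ch25h-/-, again with no overlap (log2 fold change -1.03, SE 0.34, edgeR adjusted p = 0.318). Its Ch25h+/+ Tau+ libraries ran from 45.0 to 175 CPM, wider than that difference. For CA3 too, the share of all genes whose groups did not overlap is not given here. Tenm3 in CA3 had a log2 fold change of -0.35 (SE 0.17, edgeR adjusted p = 0.499), and Tenm4 one of -0.07 (SE 0.06, edgeR adjusted p = 0.774). In CA1, Tenm1 had -0.49 (SE 0.17, edgeR adjusted p = 0.529) and Tenm4 -0.21 (SE 0.09, edgeR adjusted p = 0.677), which was -0.12 without Ch25h-/- Tau- replicate 4. Tenm4 in inhibitory neurons labelled Ch25h-/- had -0.24 to -0.10 with a library left out. Averaged over genotypes it had -0.16 to -0.10 there.

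In glia, Adgrl3 in astrocytes read 1169, 1135, 1146 and 1296 CPM with tau and 1474, 1439, 1436 and 1229 CPM without in the libraries labelled Ch25h-/-, with replicate 4 of each group crossing over (log2 fold change -0.26, SE 0.08, edgeR adjusted p = 0.271). In Ch25h+/+ it read 1266 ± 105 with tau and 1276 ± 38.0 CPM without (SD, n = 4), and averaged over genotypes it had -0.16 (SE 0.06, edgeR adjusted p = 0.148), the lowest adjusted p of the 76 in that contrast. Tenm2 in oligodendrocytes read 463, 441, 544 and 433 CPM with tau and 486, 738, 726 and 642 CPM without, which overlapped (log2 fold change -0.44, SE 0.13, edgeR adjusted p = 0.369), beside the 17.8% of its level accounted for by free RNA. In OPCs, Tenm2 had -0.31 (SE 0.11, edgeR adjusted p = 0.771).

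In microglia, for tau averaged over genotypes, Tenm2 had a log2 fold change of -0.45 (SE 0.21, edgeR adjusted p = 0.245) and Adgrl2 one of -0.36 (SE 0.17, edgeR adjusted p = 0.232), from 33 to 130 and from 22 to 113 UMIs per library. Tenm2 had an adjusted p of 0.0317 with no filter on low counts and 0.0430 without Ch25h-/- Tau- replicate 4. Adgrl2 had one of 0.032 without Ch25h+/+ Tau- replicate 3, but 0.464 without Ch25h+/+ Tau- replicate 4, where its log2 fold change was -0.22.

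The interaction asks whether the tau effect differed between the Ch25h genotypes. Over the 8 classes outside granule neurons 0 of 76 were called by edgeR and 0 by DESeq2. An unadjusted edgeR p under 0.05 was reached by 4, or 5.26% (Tenm1 in CA1, Tenm2 and Tenm3 in CA3 and Tenm3 in oligodendrocytes, all more negative in the libraries labelled Ch25h-/-). Over all genes edgeR called 0%, and 3.87% had an unadjusted p under 0.05.

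Libraries labelled Ch25h-/- were compared with those labelled Ch25h+/+ within each tau state over all 9 classes. These comparisons share their libraries with the tau comparisons. In Tau+, 0 of 86 were called by edgeR and 0 by DESeq2, while 3 of them, or 3.49%, had an unadjusted edgeR p under 0.05. Over all genes, 0.0068% were called and 3.37% had an unadjusted p under 0.05. Of the 3, Tenm4 is in granule neurons, and outside them it was 2 of 76, or 2.63%, against 3.36% of all genes. In Tau-, 0 of 86 were called by edgeR and 0 by DESeq2, beside 0.0034% of all genes called. An unadjusted edgeR p under 0.05 was reached by 7, or 8.14%, all higher in the libraries labelled Ch25h-/-, against 3.23% of all genes. Of these, 3 are in granule neurons. In both tau states the granule neuron values use libraries of the comparison that chose the genes. Outside granule neurons it was 4 of 76, or 5.26%, against 3.25% of all genes. The median log2 fold change over the 86 was 0.00 in Tau+ and 0.05 in Tau-.

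By gene, the 7 were Tenm2, Tenm3 and Tenm4 in granule neurons, Tenm1 and Tenm4 in CA1, and Tenm2 and Adgrl3 in oligodendrocytes. All 7 are values of genes of at least 500 kb. In this comparison 29.1% of 227 such long genes were lower in granule neurons labelled Ch25h-/-, against 50.8% of all genes. The shares were 44.4% of 223 against 48.5% in CA1 and 26.7% of 217 against 50.2% in oligodendrocytes. The part of gene length in these 7 values was not tested. Tenm1 in CA1 had the lowest adjusted p: it read 300, 315, 479 and 544 CPM in the libraries labelled Ch25h-/- Tau- and 241, 320, 203 and 299 CPM in Ch25h+/+ Tau- (log2 fold change 0.59, SE 0.17, edgeR adjusted p = 0.812). The difference lay in replicates 3 and 4, with means of 512 and 251 CPM, against 308 and 280 CPM in replicates 1 and 2, and replicates 3 and 4 alone gave an edgeR adjusted p of 0.0243. In that subset 65 CA1 genes were called, against 1 with all libraries. In granule neurons Tenm4 had 0.36 (SE 0.10, edgeR adjusted p = 1) in Tau-, a value that shares the libraries labelled Ch25h-/- Tau- with the comparison that chose the genes.

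Other adhesion genes that share partners or synapses with this family were read from 6 lists of 64 genes, which cover FLRT receptors, other adhesion G-protein-coupled receptors, neurexins and neuroligins, C1q-type organisers with their receptors, leucine-rich repeat organisers, and LAR phosphatases with interleukin-receptor-like ligands. Over the 9 classes and 6 contrasts 9 of the 64 genes were called at least once by edgeR. Each of the 9 was called for tau averaged over genotypes in astrocytes or microglia, where 2.82% and 7.03% of all genes were called. All 18 calls were in the tau contrasts, and they came from 4 of the 6 lists: not from neurexins and neuroligins, nor from LAR phosphatases and their ligands.

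Among the 8 FLRT receptors, Unc5c, a netrin and FLRT receptor, fell with tau in inhibitory, CA1 and other excitatory neurons and in microglia. Averaged over genotypes it was not called in CA3 (log2 fold change -0.21), granule neurons (-0.34), oligodendrocytes (-0.16) or OPCs (-0.07). Astrocytes went the other way, at 0.16 averaged and 0.47 in Ch25h+/+ (SE 0.13, edgeR adjusted p = 0.123), but -0.15 in the libraries labelled Ch25h-/-. In inhibitory neurons it read 722 ± 84.2 with tau and 1190 ± 130 CPM without in Ch25h+/+, and 755 ± 93.6 and 1252 ± 111 CPM in the libraries labelled Ch25h-/- (SD, n = 4), for a log2 fold change of -0.74 averaged over genotypes (SE 0.07, edgeR adjusted p = 2.1e-05). It fell by 0.69 in CA1 (SE 0.09, edgeR adjusted p = 0.000783) and by 0.63 in other excitatory neurons (SE 0.07, edgeR adjusted p = 0.000711). These 3 calls held with each library left out. Of all genes in inhibitory neurons 0.0274% were called. Unc5c (3:141465216-141834924) lies 0.70 Mb from Gm43049, and the part of that position in its fall was not tested. In microglia Unc5c was also called lower (-0.87, SE 0.26, edgeR adjusted p = 0.0435, from 5 to 35 UMIs per library) and Fgfr2, a fibroblast growth factor receptor, higher (0.45, SE 0.13, edgeR adjusted p = 0.0292). Unc5c lost its call in 11 and Fgfr2 in 10 of the 16 fits that left out a library, the fit without Ch25h+/+ Tau+ replicate 1 among both (highest edgeR adjusted p = 0.159 and 0.0705).

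In astrocytes, where 2.82% of all genes were called for tau averaged over genotypes, 5 list genes described here were called. The adhesion receptors Adgrv1 and Adgrg6 rose, by log2 fold changes of 0.97 (SE 0.19, edgeR adjusted p = 0.0118) and 2.0 (SE 0.41, edgeR adjusted p = 0.0110). Adgrv1 read 59.4 ± 19.4 with tau and 27.1 ± 5.34 CPM without in Ch25h+/+, whereas Adgrg6 rested on 0 to 19 UMIs per library. Grik4, a kainate receptor subunit, rose by 0.84 (SE 0.14, edgeR adjusted p = 0.00376), from 23.8 ± 7.78 to 45.2 ± 8.19 CPM in Ch25h+/+ and from 25.5 ± 3.76 to 44.1 ± 8.14 CPM in the libraries labelled Ch25h-/- (SD, n = 4). These 3 held with each library left out.

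Lrrtm3, a leucine-rich repeat organiser, was also called higher in astrocytes, by 0.71 (SE 0.18, edgeR adjusted p = 0.0334), and Grid1, a delta glutamate receptor, lower at -0.26 (SE 0.07, edgeR adjusted p = 0.0363). Each lost its call in 11 of the 16 fits that left out a library, Ch25h+/+ Tau+ replicate 1 among them (highest edgeR adjusted p = 0.0803 for Lrrtm3 and 0.0911 for Grid1). Adgrg1 in microglia was lower (-0.58, SE 0.18, edgeR adjusted p = 0.0441) and lost its call in 10 of the 16 such fits.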

How the data were processed

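The deposited files hold UMI counts per gene and barcode for all barcodes, made by the authors with Cell Ranger 4 per the file headers. The submitters' processing notes name Cell Ranger 3.1.0, Seurat and the build mm10. Whether intronic reads were counted is not given in the sources used here. Barcodes with 500 or more UMIs, 300 or more genes and at most 5% mitochondrial UMIs were taken as nuclei (147873). Scrublet scores removed the highest 0.8% per 1000 nuclei (11045 doublets). Nuclei were grouped in scanpy 1.11.5 by Leiden clustering (resolution 1, 20 neighbours, 50 components, about 3000 variable genes without the 10 members), and 20 of 53 clusters stayed unnamed. A cluster was named when at least 0.7 of its class's markers, and at least 3, were 2-fold above other nuclei. Other excitatory neurons were exempt from that share. They needed at least 3 of their markers 2-fold higher, Slc17a7 or Slc17a6 not below other nuclei, and Gad1 below them. The share of 0.7 was set after seeing the clusters. It kept 3 clusters close to CA1 out of that class, of 2.38 to 3.42%, 0.315 to 0.797% and 0.223 to 0.353% of a group's nuclei. Counts were summed per library and class with at least 20 nuclei in every library, then tested with edgeR 4.0.16 (TMM, filterByExpr, robust quasi-likelihood, 1 mean per group) and adjusted by Benjamini-Hochberg over all genes of a class and contrast. DESeq2 1.42.0 was an alternative. The script was tested on simulated granule neuron counts, at a fixed spread that was not estimated from the data. It recovered 68 of 100 changes of 2-fold and 100 of 100 of 4-fold, with 11 false calls. SD is over libraries, SE from the fit. The free-RNA share scales the profile of barcodes under 100 UMIs by the 10th percentile of the ratio of other classes' markers, so it is a low estimate. Of the file's genes, 32235 of 32285 identifiers are in GENCODE M21, used for positions. Genes named are all members, list genes that passed (1 of them is not reported here), the 3 genes most like Tenm4, Tenm3 and Adgrl2, and Gm43049, Prnp and Ch25h. Members and lists were chosen with earlier results of these data known. The other alternatives left out each library, required 1000 UMIs, kept doublets, let members cluster, dropped the filter, and added a term for, or split by, replicates 1 and 2 against 3 and 4, a division that earlier results of these data had shown and that the labels do not name as a batch.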

Additional observations from a re-analysis of the deposited data

Results flagged for a closer look

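Of 60 groups of 4 libraries checked (the 10 genes in granule neurons, Tenm1 and Tenm2 in CA3, Tenm1 in CA1, Adgrl3 in astrocytes and Tenm2 in oligodendrocytes), 4 held a library apart from the other 3 by more of the group's range than Dixon's 95% critical value, where chance gives about 1 in 20. In granule neurons Tenm2 read 3970 CPM in the library labelled Ch25h-/- Tau- replicate 4, against 4526 to 4625 CPM in the others of its group. Tenm3 read 71.5 CPM in the library labelled Ch25h-/- Tau+ replicate 1, against 55.4 to 56.8 CPM. Adgrl1 read 126 CPM in the library labelled Ch25h-/- Tau+ replicate 4, against 133 to 134 CPM. In astrocytes Adgrl3 read 1229 CPM in the library labelled Ch25h-/- Tau- replicate 4, against 1436 to 1474 CPM.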

How the results depend on the processing

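The counts of members called by edgeR (outside granule neurons for tau and the interaction, with 3 to 12 at an unadjusted p under 0.05) were 0 in all 6 contrasts and stayed 0 under DESeq2, 1000 UMIs, doublets kept, members among the variable genes, the added term and a CA1 class with 3 more clusters (chosen after seeing the data). They became 1 for tau averaged over genotypes with no filter on low counts (Tenm2 in microglia) and 1 for libraries labelled Ch25h-/- against Ch25h+/+ in Tau-, in replicates 3 and 4 alone (Tenm1 in CA1). With each library left out they were 0 to 1 for tau in the libraries labelled Ch25h-/- and for tau averaged, and 0 in the other contrasts. Of the related lists 9 genes were called, 4 to 12 with a library left out, 14 with the added term for replicates 1 and 2 against 3 and 4, and 4 in replicates 3 and 4 alone. Without Ch25h+/+ Tau+ replicate 1, Ch25h+/+ Tau- replicate 3, Ch25h-/- Tau+ replicate 2 or Ch25h-/- Tau- replicate 4 the count was 5, and without Ch25h-/- Tau- replicate 3 it was 4. Tenm4 in granule neurons had an averaged log2 fold change of -0.32, -0.37 to -0.29 with a library left out, -0.48 in replicates 1 and 2 alone and -0.17 in replicates 3 and 4 alone. In the libraries labelled Ch25h-/- it was -0.75 to -0.60 with a library left out. These Tenm4 values come from the comparison that chose the genes, so they are a description and no support for it. Of 434 alternative fits of the 18 called list results, 132 lost the call and none changed sign. Of the 90 member levels in tested classes, 8 moved by over 1 SD when free RNA was taken away, all in oligodendrocytes and astrocytes (Tenm2 in astrocytes from 97.0 to 33.0 CPM). Why these values moved was not tested. No paired analysis was possible because the labels give no replicate numbers. Those used here follow accession order and pair no libraries across groups, and the division of replicates 1 and 2 from 3 and 4 rests on that order and on earlier results of these data, not on a label. Too few counts kept Adgrl2 in OPCs and Tenm1, Flrt1 and Flrt3 in microglia out of the tests.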
